A study of Mus musculus with 8 samples.

Results

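SMCHD1 occupancy was described at 4 imprinted gene clusters of the mouse, those of *Snrpn*, *Kcnq1*, *Dlk1* and *Igf2r*, in neural stem cells (NSCs). Members were the regions of a genome-wide list of SMCHD1 peaks that overlapped a window around each cluster, and 25 of the 2840 regions did so. Of these, 24 lay in the *Snrpn* window, 1 in the *Dlk1* window and 0 in the *Kcnq1* and *Igf2r* windows. The 10 genes followed were *Ndn*, *Magel2*, *Mkrn3*, *Peg12* and *Snrpn* of the *Snrpn* cluster, *Kcnq1* and *Cdkn1c*, *Dlk1* and *Meg3*, and *Igf2r*.

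The study asked whether the *MommeD43* mutation, a missense change in the extended ATPase domain of SMCHD1, alters where the protein sits on chromatin. ChIP-seq with an antibody to GFP, which recovers and sequences the DNA bound by a GFP-tagged protein, was performed in 3 wild-type lines (Smchd1GFP+/+) and 3 lines homozygous for the mutation (Smchd1GFPMommeD43/MommeD43). All lines were female, of strain C57BL/6J, derived from the cortex of E14.5 embryos and grown for fewer than 10 passages. Both genotypes carried the GFP fusion on the endogenous *Smchd1* gene, and the mutation was introduced on that tagged allele by CRISPR/Cas9, so that no untagged or SMCHD1-null cells are part of the comparison. The bulk cultures hold both parental alleles, and reads were not split by allele. The wild-type ChIP-seq data had been published earlier and were analysed again together with the mutant data, and whether the libraries of both genotypes were made and sequenced together is not given in the sources used here, so batch and genotype cannot be told apart, and the identity of the cells could not be checked against expression markers with these data.

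Each region is a peak with 5000 bp on either side, and its value is the log2 of the read count normalized by library size. The whole cell extract input was not used to correct it, so a level includes background reads over the whole region. The 3 lines of each genotype were merged by the authors, so each region has 1 value per genotype, with no SD between lines and no test. The reads behind a value could be estimated, which gives a counting SD for each difference. It covers the counting of reads alone and is a lower bound of the error.

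Genomic imprinting silences a gene on the chromosome inherited from either the mother or the father. For many imprinted genes, the choice is set by DNA methylation laid down in the germ line. Many imprinted genes lie in clusters, which are typically controlled by an imprinting control region. SMCHD1 is a non-canonical structural maintenance of chromosomes protein that is needed for silencing of the inactive X chromosome, of clustered protocadherin genes and of genes in several imprinted clusters, among them those of *Snrpn* and *Igf2r*.

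Sequences of the reference genome are shown for the peaks on which the results turn. In the *Snrpn* cluster, 4 peaks upstream of the GENCODE M21 start of *Snrpn* were rich in CpG dinucleotides and were diverged copies of each other. A stretch of each, with CpG in capitals, is given from chromosome 7 of GRCm38.p6, plus strand. Peak 1 is chr7:60244351-60244500, peak 2 chr7:60391363-60391512, peak 3 chr7:60492499-60492644 and peak 4 chr7:60622722-60622865.
Peak 1: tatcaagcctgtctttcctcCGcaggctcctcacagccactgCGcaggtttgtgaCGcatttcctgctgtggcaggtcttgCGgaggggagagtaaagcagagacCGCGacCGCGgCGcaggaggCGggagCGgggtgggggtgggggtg
Peak 2: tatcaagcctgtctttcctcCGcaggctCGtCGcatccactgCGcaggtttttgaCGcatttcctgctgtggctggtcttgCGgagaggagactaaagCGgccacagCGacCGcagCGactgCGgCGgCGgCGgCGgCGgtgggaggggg
Peak 3: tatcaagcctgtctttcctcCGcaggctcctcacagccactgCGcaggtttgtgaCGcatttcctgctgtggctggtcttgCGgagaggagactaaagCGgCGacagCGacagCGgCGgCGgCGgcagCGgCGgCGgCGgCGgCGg
Peak 4: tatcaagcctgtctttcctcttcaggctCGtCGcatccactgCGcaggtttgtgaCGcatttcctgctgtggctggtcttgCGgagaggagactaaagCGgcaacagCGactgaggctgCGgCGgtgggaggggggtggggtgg
To the stretch of peak 1, that of peak 2 aligned with 86.5% identity over 148 bases, that of peak 3 with 91.0% over 145 bases and that of peak 4 with 88.1% over 143 bases. They hold 11, 16, 17 and 9 CpGs in the order shown. None overlaps an exon of the RefSeq models.

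The peak in *Mkrn3*, in the coding part of its single exon, had the highest wild-type level of the cluster beside the peak next to *Peg12*, from which it could not be told apart within counting error. Its central bases (chr7:62418826-62419125, minus strand) and the bases before the start of the gene (chr7:62420154-62420403, minus strand, from the RefSeq promoter of GRCm38.p6), which the same region covers, have their CpGs in capitals.
Mkrn3 peak: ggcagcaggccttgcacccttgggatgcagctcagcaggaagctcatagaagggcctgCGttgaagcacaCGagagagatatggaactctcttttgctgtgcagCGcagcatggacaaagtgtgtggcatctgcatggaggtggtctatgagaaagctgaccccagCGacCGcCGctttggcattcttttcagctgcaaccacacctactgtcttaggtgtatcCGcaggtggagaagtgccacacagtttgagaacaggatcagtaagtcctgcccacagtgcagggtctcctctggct
Mkrn3 promoter: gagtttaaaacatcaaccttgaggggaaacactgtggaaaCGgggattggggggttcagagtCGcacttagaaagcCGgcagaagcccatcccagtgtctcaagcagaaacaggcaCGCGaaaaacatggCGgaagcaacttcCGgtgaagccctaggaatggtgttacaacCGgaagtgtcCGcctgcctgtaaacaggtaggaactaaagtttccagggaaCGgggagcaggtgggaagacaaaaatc
The only member of the *Dlk1* window, a peak upstream of *Dlk1* (chr12:109443151-109443450, plus strand), is shown because it held no reads although its sequence is largely unique.
Dlk1 peak: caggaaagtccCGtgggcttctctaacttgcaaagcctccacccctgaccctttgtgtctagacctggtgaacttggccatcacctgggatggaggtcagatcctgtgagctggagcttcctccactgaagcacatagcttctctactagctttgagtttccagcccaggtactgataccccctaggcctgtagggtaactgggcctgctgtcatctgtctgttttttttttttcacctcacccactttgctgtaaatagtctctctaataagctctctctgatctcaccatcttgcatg

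RefSeq promoters of GRCm38.p6, from 250 bases before to 50 after a gene start, were matched for 8 of the 10 genes, with 12 promoters in all. Promoters of *Kcnq1* and *Cdkn1c* were not matched. The palindrome CGCATGCG, which reads the same on both strands and was chosen after the sequences were seen, occurred once in the *Ndn* promoter and once in each of the 4 *Snrpn* promoters, and in none of the other 7. Of all 32851 promoters, 615 (1.87%) held it. The *Ndn* match lies at chr7:62348243-62348272 on the plus strand, with the palindrome in capitals.
Ndn promoter: gcttcccaacaCGCATGCGcaatatcgcat
The *Ndn* promoter overlapped a peak, and its palindrome lies in the region but past the end of the peak itself. The 4 *Snrpn* promoters lay in no region. A match describes the sequence and does not show that a factor binds there.

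Nearly all of the regions lay in the *Snrpn* window. The *Snrpn* window spans 3.4 Mb and held 7.06 regions per Mb, against 1.04 per Mb over the genome. The *Dlk1* window, with 1 region in 0.5 Mb, is too short for a density to be read from it. Among 791 tiles of the same length along the chromosomes, 6 (0.759%) held at least 24 regions, and the median tile held 3. The genome and tile values include chromosome Y, which these female lines lack, and unassembled sequence, so both can be somewhat low. The 24 regions form 15 groups that share no bases with another group, so regions of a group share reads and are not separate observations. They fell into 5 stretches, drawn up after the values were seen. The stretches held 1 region in *Ube3a*, 7 upstream of *Snrpn*, 4 between these and *Ndn*, 10 from *Ndn* to *Peg12* and 2 beyond *Peg12*. Upstream refers to the GENCODE M21 start of *Snrpn*.

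The median wild-type value was 7.32 (range 5.52 to 8.28), against 7.76 over all 2840 regions, and the median *MommeD43* value was 7.53 (range 5.34 to 8.42), against 7.83. The wild-type median ranked at the 39.5th percentile of all regions, but at the 52.1st percentile of the regions that overlap no other, which had a median of 7.24. These values correspond to 33.5 to 226 reads per wild-type library and 25.2 to 213 reads per *MommeD43* library. In the order of wild-type levels, 19 of 23 pairs of neighbours differed by no more than 2 counting SDs, so most neighbours in that order could not be told apart.

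**Figure D1:**
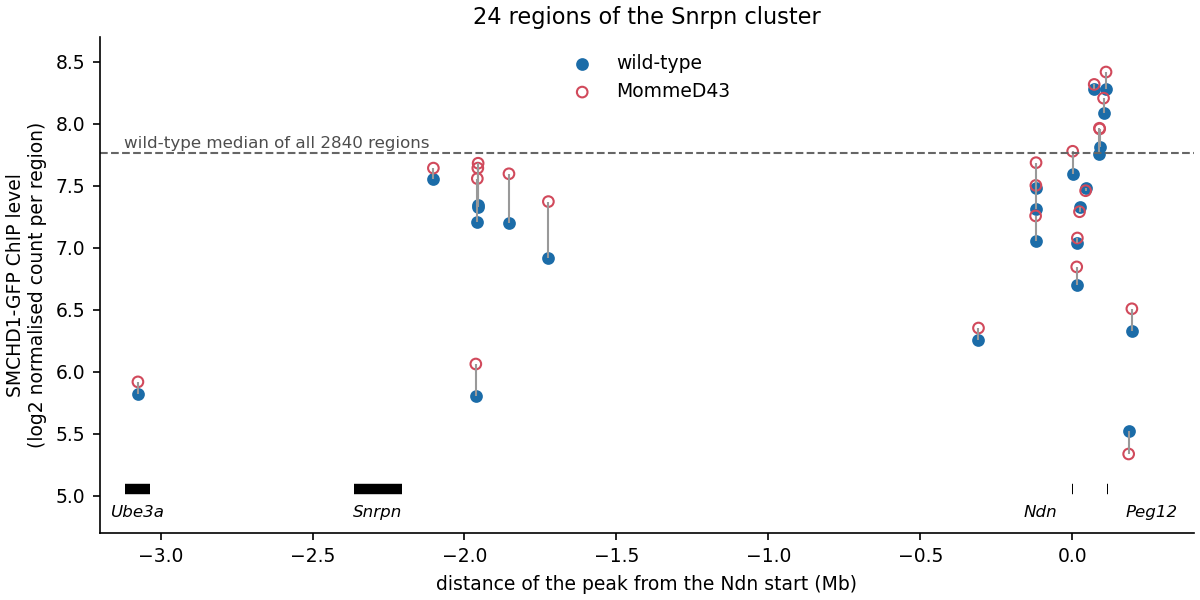
SMCHD1-GFP ChIP level (log2 normalised count per region) of the 24 regions of the *Snrpn* cluster, plotted by the distance of each peak from the start of *Ndn* (Mb). Filled points are wild-type, open points *MommeD43*, 1 merged value each, joined by a line for each region; black bars are genes and the dashed line is the wild-type median of all regions, 7.76. The highest points lie from *Ndn* to *Peg12*, and the longest joining lines lie upstream of *Snrpn*.

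The stretch from *Ndn* to *Peg12* holds 4 paternally expressed genes, and SMCHD1-GFP ChIP levels, not corrected for input, were highest near *Mkrn3* and *Peg12*. The region at *Mkrn3*, which encodes a makorin RING finger protein, had a level of 8.28 in wild-type and 8.32 in *MommeD43*. The region of the peak at chr7:62457751-62458050, which covers the 3′ part of *Peg12*, a gene of the FRAT family, had levels of 8.28 and 8.42. The region at *Ndn*, which encodes the MAGE family protein necdin, had levels of 7.59 and 7.78. In wild-type, *Mkrn3* and *Peg12* thus stood at the 62.2nd percentile of all regions and *Ndn* at the 45.3rd.

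Differences between genotypes at these genes were small. The *Mkrn3* region was 0.04 higher in *MommeD43* on the log2 scale with a counting SD of 0.08, the *Peg12* region 0.14 higher with a counting SD of 0.08, and the *Ndn* region 0.19 higher with a counting SD of 0.10. Each lay within 2 counting SDs of 0, so no difference was detectable at these genes at this depth.

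The peaks were placed differently at the 4 genes. At *Ndn* the peak (chr7:62347951-62348250) ended 27 bp before the RefSeq start. In the GENCODE M21 model *Ndn* starts further upstream, and the peak lies in its 5′ untranslated part, 1382 bp from that start. At *Mkrn3* the peak (chr7:62418751-62419200) lay 939 bp inside the gene. The *Peg12* start was 1.46 kb outside the nearest region and 6.46 kb from the peak itself. *Magel2*, another MAGE family gene, overlapped no region, and its start lay 1.26 kb from the nearest region and 6.26 kb from its peak. The regions next to *Magel2* had levels of 7.33 in wild-type and 7.29 in *MommeD43* on the *Ndn* side (peak at chr7:62370451-62370750) and 7.48 and 7.46 on the *Mkrn3* side (peak at chr7:62390401-62391000). They were the only regions of this stretch that were lower in *MommeD43*, by less than their counting SDs of 0.11.

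The remaining 5 regions of this stretch lay between the genes. A pair of peaks between *Ndn* and *Magel2*, in an intron of the noncoding gene *Gm32061*, had the lowest levels of the stretch, 6.70 and 7.03 in wild-type and 6.84 and 7.08 in *MommeD43*. Between *Mkrn3* and *Peg12*, where no gene is annotated, 3 regions had wild-type levels of 7.76, 7.81 and 8.09 and *MommeD43* levels of 7.96, 7.96 and 8.20. Listed peaks thus lay between the genes as well as at them. Levels were higher on the *Mkrn3* and *Peg12* side than between *Ndn* and *Magel2*. Over the 10 regions, the median difference was 0.13, with 8 higher and 2 lower in *MommeD43*, and 1, at the peak starting at 62436001 on chromosome 7, lay beyond 2 counting SDs. Of all regions, 66.0% were higher and 30.8% lay beyond 2 counting SDs. Relative to the median of all regions, 6 of the 10 were higher and 4 lower, with a median of 0.05.

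**Figure D2:**
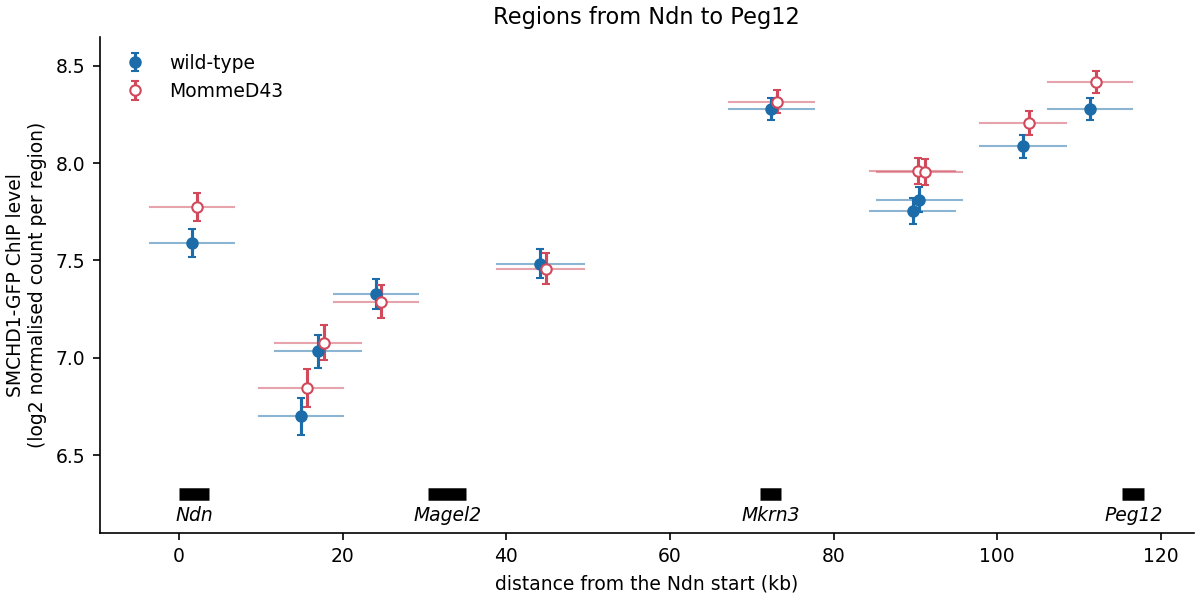
SMCHD1-GFP ChIP level (log2 normalised count per region) of the 10 regions from *Ndn* to *Peg12* by distance from the *Ndn* start (kb). Points are placed at the peaks (wild-type filled, *MommeD43* open and moved 0.7 kb to the right), horizontal lines span the regions, vertical bars are 1 counting SD of each value and black bars are genes. Levels were 8.28 and 8.32 at *Mkrn3*, and *Magel2* lies in the gap between regions.

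Upstream of *Snrpn*, which encodes a protein of the spliceosome, levels were intermediate and differed most between the genotypes. Of the 7 regions, the wild-type values ranged from 5.81 to 7.55 with a median of 7.21, and the *MommeD43* values from 6.06 to 7.68 with a median of 7.60. All 7 were higher in *MommeD43*, with a median difference of 0.34 (range 0.09 to 0.46), and 5 of them lay beyond 2 counting SDs, against 30.8% of all regions. The 1039 regions outside the windows in the same range of wild-type levels lay lower (median 6.69) and had larger counting SDs (median 0.14 against 0.11), and 14.3% of them lay beyond 2. Without the lowest of the 7 regions, a range chosen after the values were seen, 396 outside regions had a median of 7.23, and 20.2% lay beyond 2. In the *Snrpn* window as a whole, 6 of 24 regions did so. The largest difference of the cluster was at chr7:60622501-60623100, the peak farthest from the GENCODE M21 start of *Snrpn*. Its levels were 6.91 in wild-type and 7.37 in *MommeD43*, a difference of 0.46 with a counting SD of 0.12. The smallest of the 7 was at chr7:60243601-60245100, the peak nearest to that start. Its levels were 7.55 and 7.64, a difference of 0.09 with a counting SD of 0.10.

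The middle of this stretch held 4 overlapping regions, which share reads. Their peaks started at 60383851, 60388801, 60390301 and 60390901 on chromosome 7. Wild-type levels were 5.81, 7.21, 7.33 and 7.34 and *MommeD43* levels 6.06, 7.56, 7.64 and 7.68, in that order. The region between this group and the farthest peak (chr7:60492451-60493650) had levels of 7.20 and 7.60, a difference of 0.40 with a counting SD of 0.11. In GENCODE M21, the *Snrpn* start lies 98.4 kb from the nearest of these regions and no gene is annotated at any of the 7. The longer RefSeq models of *Snrpn* and of the noncoding host gene *Snhg14* span 5 of the peaks, all in introns.

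These 7 regions share sequence, which the member rule did not use. Between 47.6% and 61.0% of their 31-mers occurred once in the genome, against a median of 94.8% over all regions. Copies lay mostly close by: a median of 46.5% of their 31-mers occurred more than once within the *Snrpn* window itself (range 35.4% to 51.3%), against 1.22% in the other 17 regions of the window (range 0% to 34.0%). The 4 CpG-rich peaks aligned to each other with 89.3% to 95.0% identity over 424 to 1202 bases in 6 pairs. At 75 bases, the read length given for the ChIP-seq libraries, a median of 13.1% of positions in the 7 regions had an identical copy in the window (range 5.75% to 18.6%), against 0% in the other 17 (range 0% to 18.7%). Most reads of this length thus differ between the copies, and those from the identical part could be placed at more than 1 of them. How many reads were placed so was not measured.

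The CpG content differed among these peaks. Observed over expected CpG exceeded 0.6 in the 4 copies but was 0.114, 0.0964 and 0.418 in the other 3 of the 7 peaks. It exceeded 0.6 in 0 of the other 17 peaks of the window and in 442 (15.6%) of all 2840 peaks. The part of repeated sequence in the genotype difference was not tested. The 86 regions outside the windows with a unique share in the same range had a median difference of -0.01. Among them, 42 were higher and 44 lower in *MommeD43*, and 13 were higher and 10 lower by over 0.25. These 86 had lower wild-type levels than the 7 (median 6.37 against 7.21) and larger counting SDs (median 0.16 against 0.11). Where their copies lie was not counted, so they are alike in unique share only. Of the 396 outside regions in the narrower range of wild-type levels, 196 were higher and 200 lower in *MommeD43*, and 46 were higher and 28 lower by over 0.25. Of the 1039 in the wider range, 102 were higher and 95 lower by over 0.25.

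**Figure D3:**
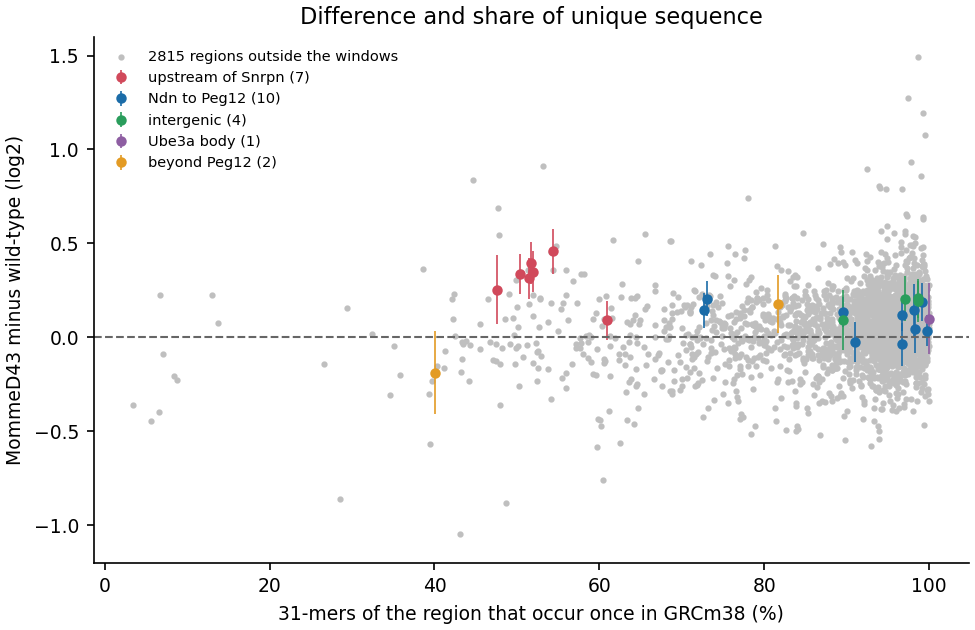
Difference between genotypes (*MommeD43* minus wild-type, log2) against the percentage of a region's 31-mers that occur once in GRCm38. Grey points are the 2815 regions outside the windows, coloured points the 24 regions of the *Snrpn* window by stretch with bars of 1 counting SD. The 7 regions upstream of *Snrpn* lie at 47.6% to 61.0% unique 31-mers and all above 0.

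The remaining 7 regions lay in *Ube3a*, between *Snrpn* and *Ndn* and beyond *Peg12*. The region in *Ube3a*, a ubiquitin ligase gene expressed from the maternal chromosome in neurons, had its peak over coding sequence (chr7:59271901-59272200) and levels of 5.82 in wild-type and 5.92 in *MommeD43*. Between *Snrpn* and *Ndn*, the region over the small RNA gene *Gm23431* had levels of 6.26 and 6.35. A group of 3 overlapping regions about 119 kb from *Ndn* had wild-type levels of 7.05, 7.31 and 7.48 and *MommeD43* levels of 7.26, 7.50 and 7.68, and in each the genotypes differed by no more than 2 counting SDs. Beyond *Peg12*, levels were 5.52 and 5.34 at the peak of chr7:62532151-62532600, which is 95.6% repeat-masked over its region, and 6.33 and 6.51 at the peak of chr7:62542651-62543250. The former had the only other decrease of the window, of less than its counting SD of 0.22.

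Counted over the *Snrpn* window, 21 of 24 regions were higher and 3 lower in *MommeD43*, with a median difference of 0.16, while 66.0% of all regions were higher, with a median of 0.07. By more than 0.25, 6 of 24 were higher, against 11.4% of all regions, and 0 were lower, against 4.68%. All 6 lie upstream of *Snrpn*. By more than 0.5 in either direction, 0 of 24 differed, against 1.69% of all regions. Relative to the median of all regions, the median difference of the window was 0.09, and 19 of 24 were higher and 5 lower, 4 by over 0.25 above and 1 by over 0.25 below, and the split of all regions at 0.25 changed from 324 higher and 133 lower to 141 and 255.

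Without the 7 regions upstream of *Snrpn*, a subset chosen after the values were seen, the other 17 regions had a median difference of 0.14, with 14 higher and 3 lower, and 1 (5.88%) lay beyond 2 counting SDs, against 30.8% of all regions. Relative to the median of all regions, 12 of the 17 were higher and 5 lower, with a median of 0.06. All regions had higher wild-type levels than the 17 (median 7.76 against 7.33) and smaller counting SDs (median 0.10 against 0.11), so their shares beyond 2 are not of like depth. The 156 other regions of chromosome 7 had a median difference of 0.07, with 101 higher and 55 lower. Their wild-type median was 7.39, and 24.4% of them lay beyond 2 counting SDs. With 1 merged value per genotype, none of these differences could be set against the spread between lines.

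**Figure D4:**
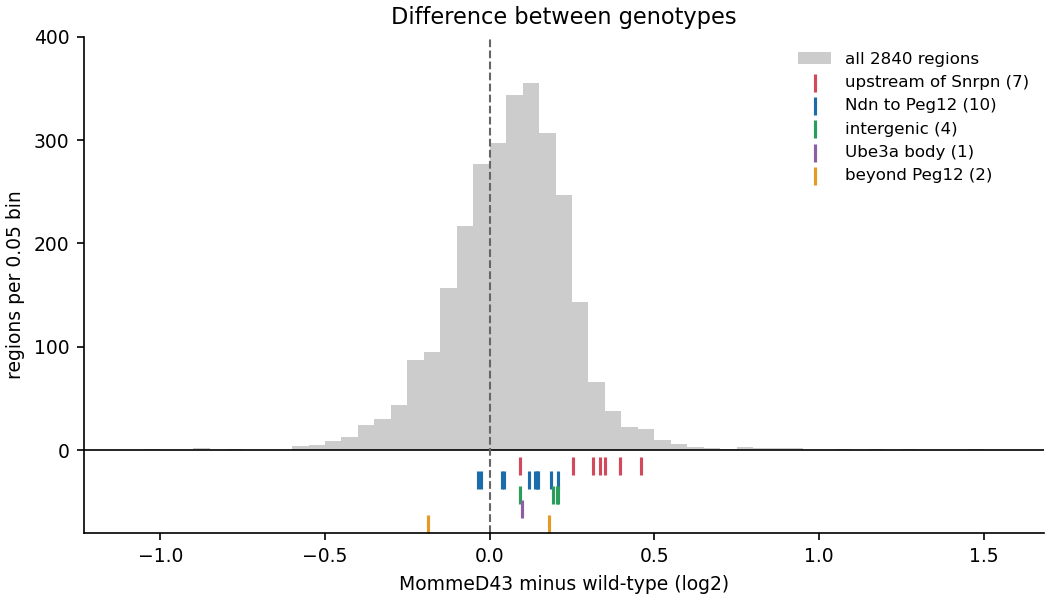
Histogram of the difference between genotypes (*MommeD43* minus wild-type, log2) over all 2840 regions in bins of 0.05. Ticks below the axis are the regions of the *Snrpn* window by stretch. The ticks upstream of *Snrpn* lie from 0.09 to 0.46 and those from *Ndn* to *Peg12* from -0.04 to 0.21.

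The *Dlk1* window held a single region, and it had no reads. *Dlk1* encodes a transmembrane ligand related to those of Notch, and *Meg3* a noncoding RNA expressed from the maternal chromosome. The value was 0.31 in wild-type and 0.53 in *MommeD43*, the lowest of each column, which is what 0 reads in every library gives. No difference between genotypes can be read from a region listed at 0. The peak lies 9.37 kb before the *Dlk1* start and 97.6 kb before that of *Meg3*, outside annotated genes.

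The absence of reads extends over the whole 10300 bp of that region. Of its 31-mers, 97.7% occurred once in the genome. The same lowest pair of values was found in 12 regions of the genome, and 8 of these had over 90% unique 31-mers. Among the 2000 regions with over 90% unique 31-mers and reads, the 5th percentile was 44.3 reads per wild-type library and the median 217. The region thus lacked even the reads found in weak regions, so the value gives no level of SMCHD1 for the *Dlk1* cluster. The cause of the missing reads, including whether they were removed before counting, was not tested. The closest regions outside the window lay 308 kb and 471 kb from its edges, and the nearer had levels of 7.59 in wild-type and 7.72 in *MommeD43*.

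The *Kcnq1* and *Igf2r* clusters had no region. *Kcnq1* encodes a potassium channel subunit and *Cdkn1c* an inhibitor of cyclin-dependent kinases that restrains growth. Their starts lay 718 kb and 363 kb from the nearest region, which lies outside the 1.1 Mb window and had levels of 8.85 in wild-type and 8.94 in *MommeD43*. On the *H19* side, the closest region lay 210 kb outside the window, with levels of 8.82 and 8.97. *Igf2r* encodes the receptor that takes up and degrades insulin-like growth factor 2, and its start lay 3191 kb from the nearest region, which had levels of 6.66 and 6.49. Of 791 tiles of 3.4 Mb, 140 (17.7%) held no region. This share can be raised by chromosome Y, which these female lines lack, and by unassembled sequence. The windows of these 2 clusters are shorter than a tile, and a window without a region is thus not rare. Because values were deposited at listed peaks, SMCHD1 signal in these windows that was not called as a peak is not measured here.

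**Figure D5:**
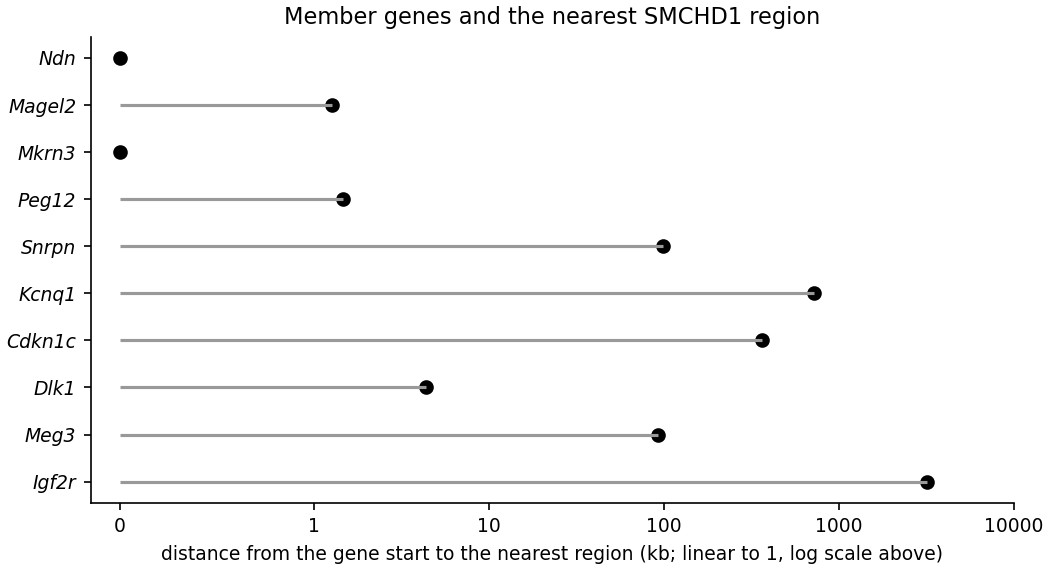
Distance from the start of each of the 10 genes to the nearest region (kb; linear up to 1 and a log scale above). The starts of *Ndn* and *Mkrn3* lie inside a region, at 0 kb, and that of *Igf2r* is 3191 kb away.

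Counted by gene with the GENCODE M21 models, the starts of 2 of the 10 genes, *Ndn* and *Mkrn3*, lay in a region, and 3 gene bodies, with *Peg12*, overlapped one. Of all 21938 protein-coding genes, those on chromosome Y included, 659 (3.00%) had their start in a region and 1191 (5.43%) overlapped one. Of 27 other genes on a list drawn up for these clusters (*Osbpl5* lies just outside its window), among them *H19*, *Igf2*, *Kcnq1ot1*, *Phlda2*, *Rtl1*, *Rian*, *Airn* and *Slc22a3*, in the same models 0 had their start in a region, and the body of 1, *Ube3a*, overlapped one. The longer RefSeq models of *Snrpn* and *Snhg14* also overlap regions. Outside that list, the noncoding genes *Gm32061* and *Gm23431* overlapped regions of the *Snrpn* window.

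Among 40 other imprinted genes outside these windows, 9 (22.5%) had a region within 5 kb, against 1360 of 21938 protein-coding genes (6.20%). The list was chosen with earlier results of these data known, and gene length was not matched. The shares thus describe the list and do not measure an enrichment at imprinted genes. The 9 genes were *Peg3*, *Usp29*, *Grb10*, *Herc3*, *Nnat*, *Blcap*, *Sfmbt2*, *Asb4* and *Zdbf2*. Neighbouring genes shared a region, which left 7 strongest regions. The *Peg3* region, shared with *Usp29*, had levels of 8.85 in wild-type and 9.12 in *MommeD43*, above every region of the *Snrpn* window. The *Zdbf2* region had levels of 9.16 and 9.23, the *Sfmbt2* region 8.94 and 9.01 and the region of *Nnat* and *Blcap* 9.11 and 9.30. The *Grb10* region, with 7.79 and 8.29, had the largest difference of the 7, 0.50 with a counting SD of 0.09. *Asb4* had 8.33 and 8.35 and *Herc3* 7.22 and 7.26. All 7 were higher in *MommeD43*, as were 66.0% of all regions. Their median difference was 0.08, close to the 0.07 of all regions.

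The 3 regions outside the windows with levels most like those of the *Mkrn3* region, by Euclidean distance in the 2 log2 values, lay at *Mrpl48* and *Rab6a* (8.27 in wild-type and 8.32 in *MommeD43*), at *Gucd1* (8.28 and 8.31) and at *Trdmt1* (8.28 and 8.30). Regions at *Gatm*, *Pramef8* and *Auts2* shared the lowest pair of values with the *Dlk1* region. With 1 value per genotype, likeness means equal levels only.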

How the data were processed

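SMCHD1-GFP ChIP-seq of 3 lines per genotype was used. The WCE libraries, 1 per genotype, were not used here. Samples were grouped by their labels. The authors trimmed reads (Trim Galore 0.4.4 in the submitters' processing notes), mapped them to GRCm38.p6 with Bowtie2 2.3.4.1 and counted them in SeqMonk over earlier SMCHD1 peaks with 5000 bp on each side. The authors deposited log2 values normalized by library size, merged over the 3 lines. Normalization by library size keeps differences in enrichment between libraries.

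Low values were checked for whole reads. With 0 reads entered as 0.9, the product over the 3 libraries was taken, and these factors of 0.9 were divided out. Values with a product under 10000, apart from the lowest, were used. The result was whole within 0.05 in 14 of 14 wild-type and 29 of 29 *MommeD43* values. From the lowest value follow the library factor, as a log2 mean over libraries (wild-type 0.46, *MommeD43* 0.68), the geometric mean of reads per library and the counting SD. Total reads per library are unknown.

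Genes came from GENCODE M21 and RefSeq. Shares of 31-mers were counted over GRCm38.p6. Locally weighted fits used a share of 0.3 of the regions. Functions were tested on simulated data. The members and lists were chosen with earlier results of these data known. Genes named are the 10 members, genes overlapping regions, listed genes of the windows, other imprinted genes with a region and genes of the 3 regions most alike. Python 3.11.15, NumPy 2.4.6, pandas 2.3.3, statsmodels 0.14.6, Numba 0.67.0, Biopython 1.88 and Matplotlib 3.10.9 were used.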

Additional observations from a re-analysis of the deposited data

How the results depend on the processing

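The number of regions in each window was the same when the peak itself had to lie in the window and when windows were widened by 200 kb. The median difference of the *Snrpn* window, 0.16, was 0.09 relative to the median of all regions, 0.15 after a fit on level, 0.16 after a fit on GC content, 0.14 with 1 region per overlapping group and 0.18 for wild-type values above 6. With only regions of over 80% unique 31-mers, an alternative chosen after seeing the data that leaves none of those upstream of *Snrpn*, it was 0.13. The wild-type median, at the 39.5th percentile of all regions, stood at the 52.1st percentile of regions that overlap no other, which have lower levels (median 7.24), and at the 48.3rd of regions on chromosome 7 (median of the others 7.39). The median from *Ndn* to *Peg12*, 0.13, was 0.05 relative to the median of all regions and after the fit on level. That upstream of *Snrpn*, 0.34, was 0.26 and 0.31. No paired analysis was possible because each genotype has 1 merged column. For the same reason no line could be left out. Depth limits what can be seen: the median counting SD of a difference in the *Snrpn* window was 0.11, so differences below about 2 such SDs were not detectable, and the spread between lines, which is unknown, adds to it.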
